A study of Mus musculus with 8 samples.

Results

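The chaperones of the cytosol and of the endoplasmic reticulum (ER) were examined in hearts of mice with and without steroid receptor coactivator-2 (SRC-2, gene Ncoa2), a coactivator of nuclear receptors and other transcription factors. The set was chosen by name, with earlier results of these data known, as 34 genes in 5 groups. Of these, 32 were measured among 18194 genes in all. Hsf1, the main heat shock factor, and Hsp90ab1, the constitutive cytosolic HSP90, were not listed in the probe annotation used here. RNA came from whole hearts of 4 wild type (WT) and 4 SRC-2 knockout (SRC-2 KO) mice, 1 heart per Affymetrix Mouse 430 2.0 array. All 8 mice were unstressed males of the mixed strain C57B/6Jx129Sv, 10 to 12 weeks old by the labels and fed ad lib. The KO was a germline KO, so that every cell type of the animal lacked SRC-2, and the WT mice were littermates by the methods. A whole heart holds myocytes, fibroblasts, vessels and blood cells, and in such bulk samples fewer cells of a type and less RNA per cell cannot be told apart. The labels do not say more of how the 8 animals were matched, so p-values measure the spread between these hearts.

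Chaperones bind proteins that are unfolded, newly made or damaged and help them to fold, to assemble or to be degraded. In the cytosol, HSP70 and HSP90 work in ATP-driven cycles that are steered by J proteins and other cochaperones. When unfolded protein accumulates there, heat shock factor 1 (HSF1) trimerises, binds heat shock elements in promoters and raises transcription of its inducible targets. Heart muscle also holds small heat shock proteins, ATP-independent holdases that associate with the Z disc, desmin and titin and prevent aggregation. In the ER, the HSP70 BiP, the HSP90 Grp94, calreticulin and the protein disulfide isomerases fold secreted and membrane proteins, and their genes are classical targets of the unfolded protein response through ER stress elements.

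A probeset is a group of short probes for 1 transcript, and the one with the highest mean signal represented its gene. Signals are the deposited intensities on a linear scale, on which each array was scaled to the same trimmed mean, and fold changes are differences of mean log2 signal, KO minus WT. Between 36.9% and 40.7% of probesets per array had signals below 50. All 32 members had every signal above 50, which held for 10878 of all genes. Ncoa2 itself had signals of 1660, 2115, 1827 and 2134 in WT hearts 1 to 4 and of 237, 260, 267 and 235 in KO hearts 1 to 4. Its log2 fold change was -2.95 ± 0.12 (SE, n = 4 per genotype), with an adjusted p of 0.00058 in limma, so the labels held in every heart.

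No chaperone passed the test between genotypes. The genotypes were compared gene by gene with limma, and Benjamini-Hochberg adjustment ran over the full set of genes. The common-variance fit, in which the spread of each gene is drawn toward 1 value, called 0 of 32 members at 0.05 and 4 of 18194 genes (0.022%). The trended fit, in which it is drawn toward that of genes with similar signal, called 0 members and 68 genes (0.374%). The lowest adjusted p of a member was 0.399 in the first and 0.119 in the second.

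The groups nevertheless lay on different sides of WT. All 7 ER chaperones had a lower mean in KO hearts, and their median fold change was -0.30 on the log2 scale (6 of 7 were lower after median centring of the arrays and 5 with the mean of all probesets). All 7 small heat shock proteins had a higher mean, with a median of 0.18 (5 of 7 were higher under quantile normalization, and 5 of 7 with a median of 0.10 without KO heart 1). Of the inducible HSF1 targets 10 of 11 were higher, with a median of 0.14 (7 of 11 without KO heart 4 and 8 of 11 without WT heart 2). Of the constitutive cytosolic chaperones 5 of 6 were higher, with a median of 0.20 (3 of 6 with a median of 0.07 when cross-hybridising probesets were left out). Over all genes 46.9% were higher and the median was -0.03, but in the tenth of genes with the highest signals 68.8% were higher with a median of 0.09. The share of members that were higher, 22 of 32 or 68.8%, equalled that of these bright genes.

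Without adjustment, 3 members were higher at p under 0.05 in the common-variance fit, where 3.95% of all genes were, and 3 were lower, where 6.09% were. These were Dnajb4, Hspb1 and Hspb3 on the higher side, and Hspa2, Hsp90b1 and Calr on the lower side. In the trended fit 5 members were higher, against 5.33% of all genes, and 5 were lower, against 7.22%, with Hspa1a, Dnajb5, Pdia3 and Pdia6 added. The 4 KO hearts lay above all 4 WT hearts for Dnajb4 and Hspb1, 2 of 32 members, against 3.12% of all genes. They lay below them for Hspa2, Hsp90b1 and Calr, 3 of 32 members, against 3.72% of all genes. In the tenth of genes with the highest signals, they lay above for 206 of 1819 genes and below for 47. Of these 1819 genes, 164 were higher and 69 lower at an unadjusted limma p under 0.05 in the common-variance fit. In the trended fit these were 338 and 132. The count of 6 members at an unadjusted p under 0.05 in the common-variance fit, where 10% of all genes were, was 2 without WT heart 2 (7.95% of all genes) or without KO heart 1 (8.21%) and 8 without KO heart 4 (12.1%). The count of members with separate genotypes was 5, against 6.84% of all genes, and 9 without KO heart 3, against 9.29%, where 4 hearts face 3.

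**Figure D1:**
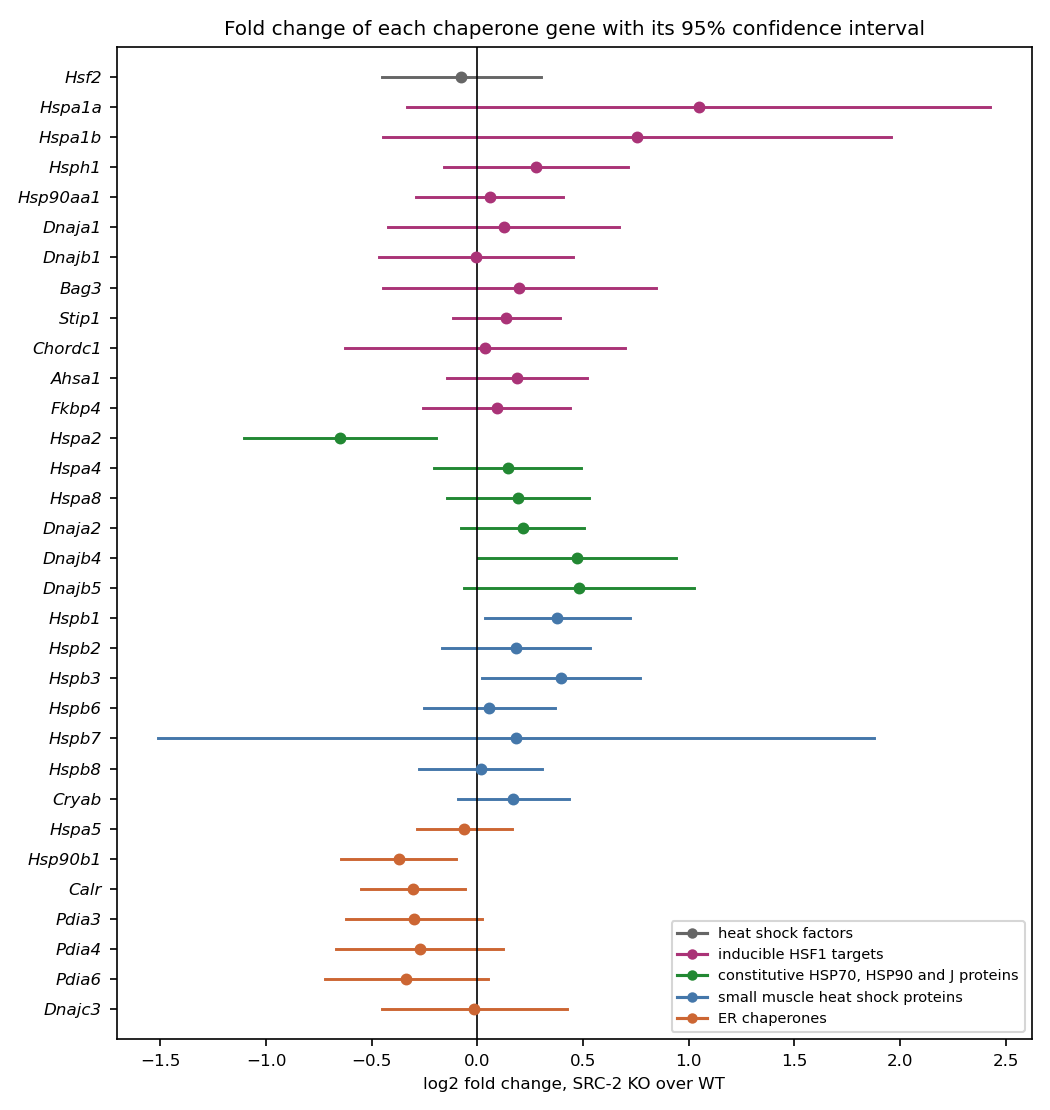
The log2 fold change of KO over WT for the 32 measured chaperones, drawn as a point with its 95% confidence interval from the common-variance fit (n = 4 hearts per genotype), coloured by group. The 7 ER chaperones at the bottom lie left of 0 and the 7 small heat shock proteins above them lie right of it (6 and 5 of 7 under the scalings named in the text), with most intervals crossing 0 and the widest for Hspb7.

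The ER chaperones were the group with the lowest median. Of their promoters 5 hold the full ER stress element, the motif through which ATF6, with NF-Y, and XBP1 act in the unfolded protein response. The motif searched was CCAAT, any 9 bases and CCACG, on both strands, in windows from 250 bases before to 50 bases after each gene's start in the RefSeq promoter table of build GRCm38.p6, which held 28 of the 34 members. It was found in 5 of 7 ER chaperones and in 0 of the other 21 members with a window. Of 27025 genes with a window 37 hold it, or 0.137%, and of 32851 windows 39, or 0.119%. Among the genes of ER folding and degradation outside the group, 5 of 23 windows (21.7%) held it. The windows of Pdia3 and Pdia4 did not hold these letters. The 5 promoters with a match are shown, from 250 bases before the start to the last base before it, with the motif in capitals on either strand.

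Hspa5, chr2:34771840-34772089, plus strand: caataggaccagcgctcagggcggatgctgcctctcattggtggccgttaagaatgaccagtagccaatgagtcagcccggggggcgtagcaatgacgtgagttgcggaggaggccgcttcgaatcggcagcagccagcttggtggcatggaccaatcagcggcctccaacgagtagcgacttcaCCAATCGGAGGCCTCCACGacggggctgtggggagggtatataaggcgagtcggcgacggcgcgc
Hsp90b1, chr10:86705445-86705694, minus strand: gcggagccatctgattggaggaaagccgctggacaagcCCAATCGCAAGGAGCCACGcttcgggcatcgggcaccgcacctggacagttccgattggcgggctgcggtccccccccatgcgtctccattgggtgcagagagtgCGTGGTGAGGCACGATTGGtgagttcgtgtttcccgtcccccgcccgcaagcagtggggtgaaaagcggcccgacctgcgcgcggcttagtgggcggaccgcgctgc
Calr, chr8:84846932-84847181, minus strand: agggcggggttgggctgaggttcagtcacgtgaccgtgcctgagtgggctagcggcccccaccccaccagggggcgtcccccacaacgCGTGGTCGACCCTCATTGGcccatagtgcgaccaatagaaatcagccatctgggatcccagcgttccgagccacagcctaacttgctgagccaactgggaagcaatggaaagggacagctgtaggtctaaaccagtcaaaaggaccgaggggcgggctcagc
Pdia6, chr12:17266339-17266588, plus strand: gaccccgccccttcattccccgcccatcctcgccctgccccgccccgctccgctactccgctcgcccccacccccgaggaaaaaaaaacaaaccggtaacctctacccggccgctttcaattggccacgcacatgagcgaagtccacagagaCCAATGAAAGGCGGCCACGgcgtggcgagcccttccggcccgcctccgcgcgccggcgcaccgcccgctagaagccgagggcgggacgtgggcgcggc
Dnajc3, chr14:118937682-118937931, plus strand: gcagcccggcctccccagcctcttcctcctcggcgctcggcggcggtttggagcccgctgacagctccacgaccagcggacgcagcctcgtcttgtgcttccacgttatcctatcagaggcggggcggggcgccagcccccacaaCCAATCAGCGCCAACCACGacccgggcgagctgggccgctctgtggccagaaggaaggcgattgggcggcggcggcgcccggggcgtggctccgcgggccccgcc

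Relative to the start, the element began at -65 in Hspa5, at -162 in Calr, at -98 in Pdia6 and at -105 in Dnajc3. Hsp90b1 held it at 2 places, -212 and -107. A match of letters is no proof that a factor binds there in the heart.

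Hsp90b1 encodes Grp94, the HSP90 of the ER, which folds integrins, Toll-like receptors and insulin-like growth factors. Its signals were 9229, 10382, 8432 and 10039 in WT hearts 1 to 4 and 7244, 7087, 6849 and 8201 in KO hearts 1 to 4. All 4 KO hearts lay below all 4 WT hearts. The log2 fold change was -0.37 ± 0.12 (SE, n = 4 per genotype), a level 0.772 times that of WT, with unadjusted limma p of 0.0138 (common-variance fit) and 0.00162 (trended fit). After adjustment over all genes limma gave 0.402 and 0.119. A second probeset read 4982, 4400, 4240 and 3384 in WT and 2700, 2709, 2563 and 3092 in KO. It too was lower in every KO heart, by 0.61 on the log2 scale.

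Calr encodes calreticulin, the lectin chaperone and calcium store of the ER lumen. Its signals were 10901, 11843, 10389 and 10048 in WT hearts and 8147, 9082, 8422 and 9324 in KO hearts. The genotypes did not overlap. The log2 fold change was -0.30 ± 0.10 (SE, n = 4 per genotype), with unadjusted limma p of 0.022 and 0.00401 and adjusted p of 0.437 and 0.161, the common-variance fit first. Its other probesets gave log2 fold changes of -0.29 and -0.30.

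Among the disulfide isomerases, Pdia3 (ERp57), the partner of calreticulin on glycoproteins, read 4808, 6291, 5758 and 5212 in WT and 3962, 4130, 4680 and 5158 in KO. KO hearts 1 to 3 lay below all WT hearts and KO heart 4 within their range. Its log2 fold change was -0.30 ± 0.14 (SE, n = 4 per genotype), with unadjusted limma p of 0.0648 and 0.0164. Pdia6 (P5), which also attenuates the IRE1 and PERK sensors, read 2309, 2652, 2288 and 2056 in WT and 1558, 1556, 2098 and 2226 in KO. Its KO hearts were uneven, hearts 1 and 2 far below the WT range and hearts 3 and 4 inside it. The difference was -0.34 ± 0.17 on the log2 scale (SE, n = 4 per genotype), with unadjusted limma p of 0.0791 and 0.0236. Pdia4 (ERp72) had signals from 614 to 889 in WT and from 525 to 737 in KO, which overlapped, and a log2 fold change of -0.27.

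The remaining ER chaperones are Hspa5 and Dnajc3. Hspa5, the BiP gene and the usual marker of the unfolded protein response, read 25705, 22824, 23140 and 22104 in WT and 22383, 23166, 22307 and 21806 in KO. The genotypes overlapped, and the log2 fold change was -0.06 with a 95% confidence interval from -0.29 to 0.16. Dnajc3 (p58IPK), a J protein of BiP, had signals from 1517 to 2135 in WT and from 1415 to 2210 in KO. It differed by a log2 fold change of -0.01 with an interval from -0.45 to 0.42. Its other 4 probesets, all with every signal above 50, gave -0.21, -0.38, -0.14 and -0.34 with overlapping genotypes, so the size for Dnajc3 depended on the probeset. The ER stress element shown above was present both in Hspa5, with a difference near 0, and in Hsp90b1, Calr and Pdia6, with larger ones.

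**Figure D2:**
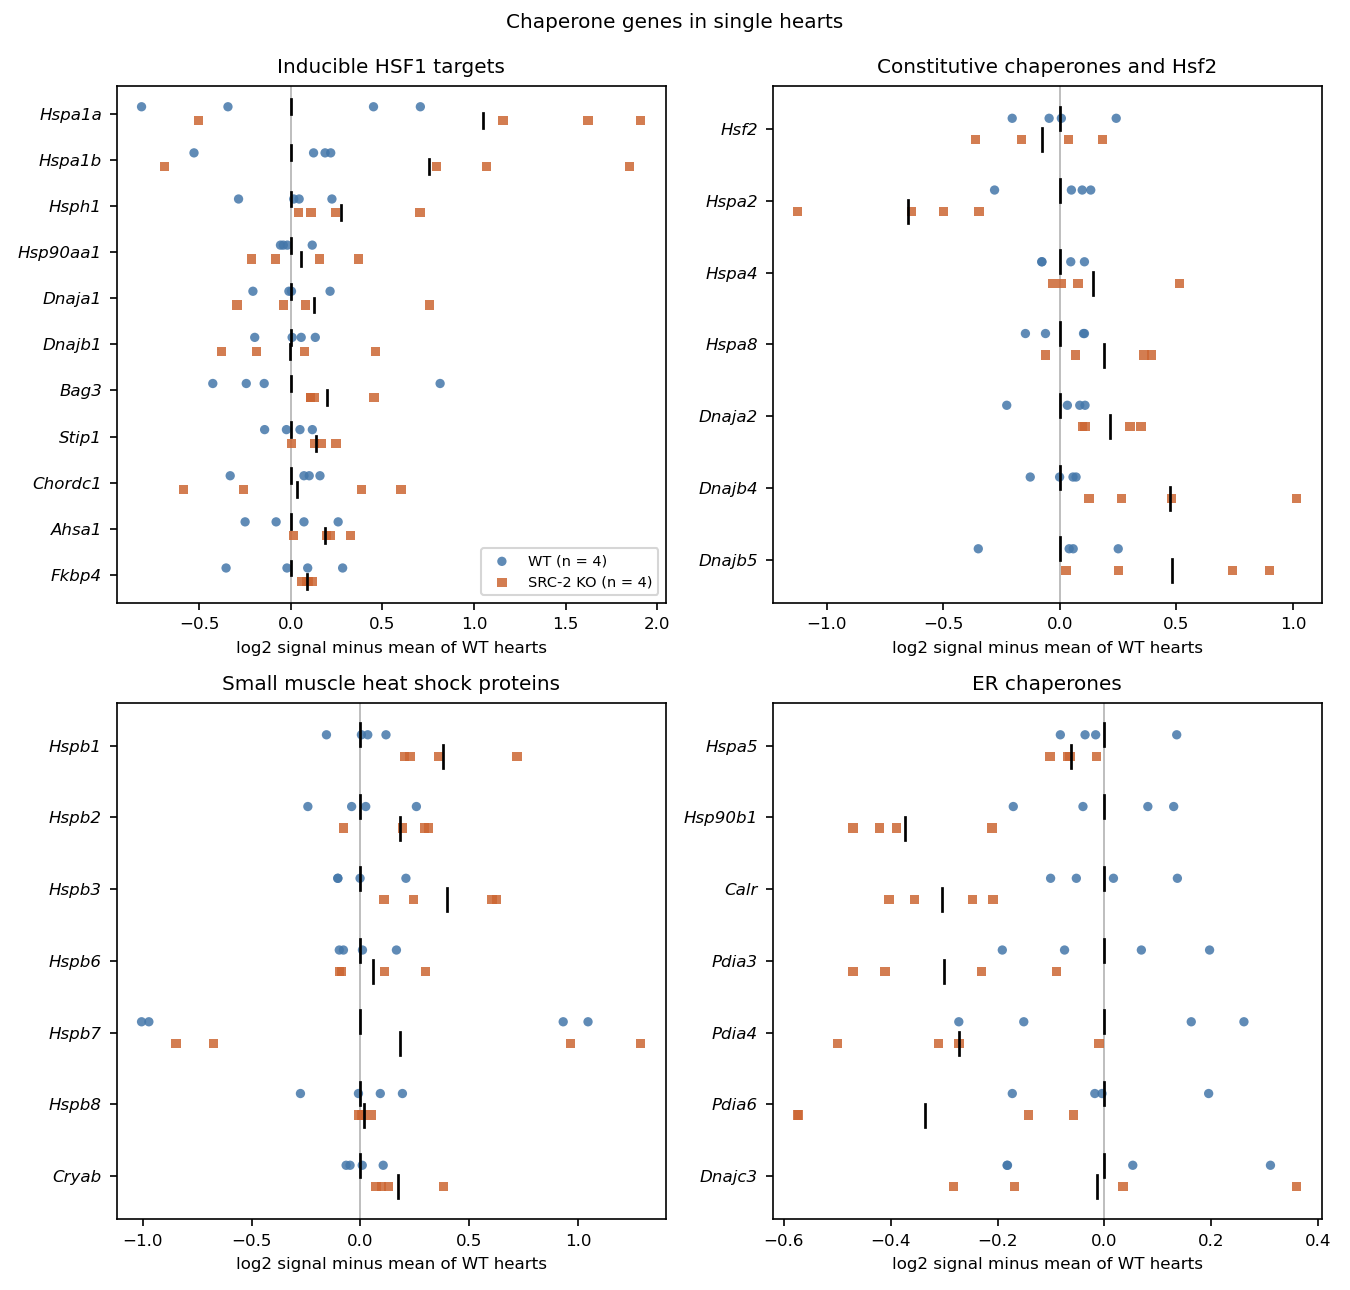
The log2 signal of each chaperone in single hearts relative to the WT mean (circles for WT, squares for SRC-2 KO, n = 4 each, black bars for the means), in 4 panels by group with separate scales. In the ER panel the 4 KO squares of Hsp90b1 and Calr lie left of all WT circles and those of Hspa5 and Dnajc3 overlap them, and Hspb7 forms a high and a low pair in both genotypes.

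The wider ER folding apparatus lay to the same side. Of 27 other genes of ER folding and degradation 23 were lower in KO and the median log2 fold change was -0.17. In 5 of them the 4 KO hearts lay below the 4 WT hearts, as for 3.72% of all genes. None passed the test in either fit. Manf, a neurotrophic factor held in the ER by BiP, read 2881, 2270, 2479 and 2194 in WT and 1710, 1914, 1435 and 1841 in KO. Every KO heart was below every WT heart, and the log2 fold change was -0.51 ± 0.14 (SE, n = 4 per genotype), with adjusted limma p of 0.385 (common-variance fit) and 0.091 (trended fit). Pdia5, a disulfide isomerase, read 403, 402, 371 and 406 in WT and 253, 274, 357 and 307 in KO, again without overlap, with a log2 fold change of -0.42.

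The sensors and factors of the ER stress response, a list that also holds target genes, were mixed. Of them 11 of 16 were lower with a median of -0.11, and none passed the test. Asns, asparagine synthetase and a target of ATF4, read 715, 658, 669 and 648 in WT and 169, 360, 158 and 402 in KO. It had the smallest p of the list, a log2 fold change of -1.43 ± 0.33 (SE, n = 4 per genotype) and adjusted limma p of 0.334 (common-variance fit) and 0.0511 (trended fit). Chac1, a glutathione-degrading enzyme and also an ATF4 target, read 507, 581, 754 and 576 in WT and 410, 492, 251 and 352 in KO, with a log2 fold change of -0.71. In both genes all KO hearts were lower than all WT hearts. Atf4 itself had a log2 fold change of -0.02, Ddit3 of -0.05 and Ppp1r15a of 0.20.

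Markers of several cell types, but not of all, were lower beside the ER chaperones. Higher means were found for 2 of 5 smooth muscle, 3 of 7 skeletal muscle, 2 of 3 adipocyte and 2 of 2 erythroid markers. The mean log2 signal of the skeletal muscle list still differed by -0.588, KO minus WT. Some of the markers with higher means were dim. Mean signals in WT and KO were 13.4 and 9.9 for Hba-a1 (erythroid) and 62.4 and 68.9 for Cidec (adipocyte). For Myh2 (skeletal muscle) they were 40.2 and 62.5. Of 4 listed erythroid markers only 2 were measured. All 8 fibroblast markers were lower in KO, and their summed signal ranged from 84257 to 136598 in WT and from 56345 to 86759 in KO. All 8 macrophage markers were lower, with sums from 19680 to 25264 in WT and from 15101 to 18870 in KO, and all 7 endothelial markers, with sums from 10517 to 13162 and from 7744 to 10917. All 9 atrial myocyte markers were lower, with sums from 161951 to 268817 in WT and from 20405 to 200585 in KO, whereas all 11 ventricular and general myocyte markers had a higher mean. No marker of these lists was at 0, and Bmp10 was the dimmest of the atrial ones, at mean signals of 59.1 in WT and 54.9 in KO. The mean log2 signal of the markers was compared in two-sided exact permutation tests over the 8 hearts (n = 4 per genotype), whose smallest possible p is 0.0286. These permutation tests gave p of 0.0286 for macrophages, 0.0571 for endothelium and 0.0857 for each of fibroblasts, atrial myocytes and skeletal muscle. Each was 0.189 after Benjamini-Hochberg adjustment over 11 measures. The part of these cell types in the ER chaperone values was not tested. KO heart 4 had the highest fibroblast and ER chaperone means among the KO hearts, -0.13 and -0.08 on the log2 scale relative to WT, while the lowest KO means were in heart 3 for fibroblasts, at -0.91, and in heart 2 for ER chaperones, at -0.33.

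**Figure D3:**
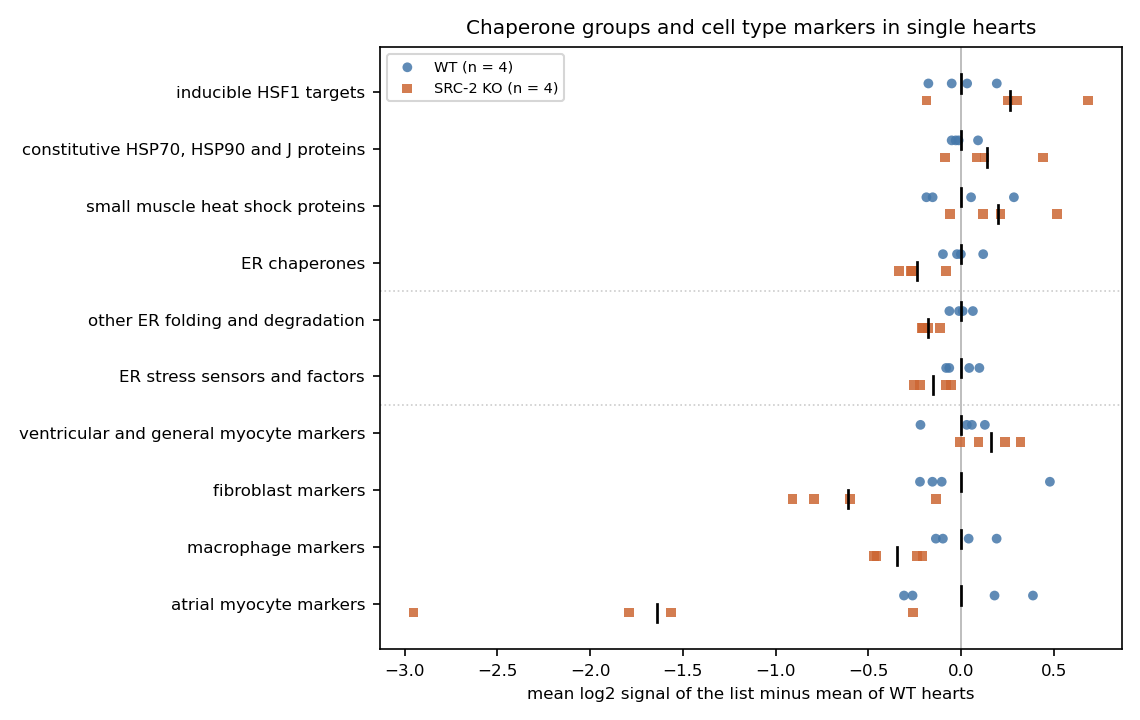
Mean log2 signal of 4 chaperone groups, 2 further ER lists and 4 lists of cell type markers in single hearts relative to the WT mean (circles WT, squares SRC-2 KO, n = 4 each, black bars for the means). The ER lists and the fibroblast, macrophage and atrial markers have KO means left of the WT mean. The cytosolic groups and the ventricular and general myocyte markers have KO means right of it. Single KO and WT hearts overlap in all lists except other ER folding and degradation and the macrophage markers.

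Of the heat shock factors, Hsf2, which forms trimers with HSF1, read 240, 294, 215 and 249 in WT and 222, 255, 282 and 193 in KO. The genotypes overlapped and its log2 fold change was -0.08 with a 95% confidence interval from -0.45 to 0.30, and its sign turned under quantile normalization, to 0.02.

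The inducible HSF1 targets differed more between KO hearts than between genotypes. Hspa1a, one of the stress-inducible HSP70 genes, read 112, 156, 270 and 322 in WT hearts 1 to 4 and 608, 441, 139 and 742 in KO hearts 1 to 4. KO hearts 1, 2 and 4 lay above all WT hearts and KO heart 3 near the bottom of the WT range. Its log2 fold change was 1.05 ± 0.59 (SE, n = 4 per genotype), with unadjusted limma p of 0.117 (common-variance fit) and 0.0452 (trended fit) and adjusted p of 0.589 and 0.382. It was 1.56 without KO heart 3 and 0.758 without KO heart 4. Hspa1b is a near-identical copy, so reads of the pair by short probes are uncertain as to which gene they come from. It read 303, 476, 497 and 508 in WT and 757, 916, 271 and 1571 in KO, with the same 3 KO hearts above all WT hearts. Its other probesets, at log2 fold changes of 1.04 and 1.12, also had KO heart 4 highest.

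KO heart 4 stood at the top of the group. It was the highest of the 8 hearts for 7 of 11 inducible targets, although it was highest for 10.7% of all genes and for 7.75% of the tenth of genes with the highest signals. KO heart 3 was the lowest of the 8 for 5 of 11, against 15% of all genes. Hsp90aa1, the inducible cytosolic HSP90, read 7727, 7529, 7611 and 8490 in WT and 8733, 7393, 6743 and 10124 in KO. Its highest and its lowest heart were both KO hearts, 4 and 3, and its log2 fold change was 0.06 with an interval from -0.29 to 0.41, turning to -0.05 without KO heart 4. Dnaja1, a J protein of the cytosolic HSP70, read 4377, 3782, 3745 and 3269 in WT and 3667, 3983, 3079 and 6367 in KO, with KO hearts 4 and 3 again at the ends. Dnajb1 (HSP40), which directs HSP70 to release HSF1, read 1434, 1314, 1360 and 1141 in WT and 1149, 1378, 1006 and 1801 in KO. It was the 1 target with a lower mean, by a log2 fold change of -0.01, and its second probeset gave 0.20. Other probesets with every signal above 50 gave -0.09 and 0.24 for Hsp90aa1, and 0.16 and -0.13 for Dnaja1. The direction of these genes thus depended on the probeset.

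**Figure D4:**
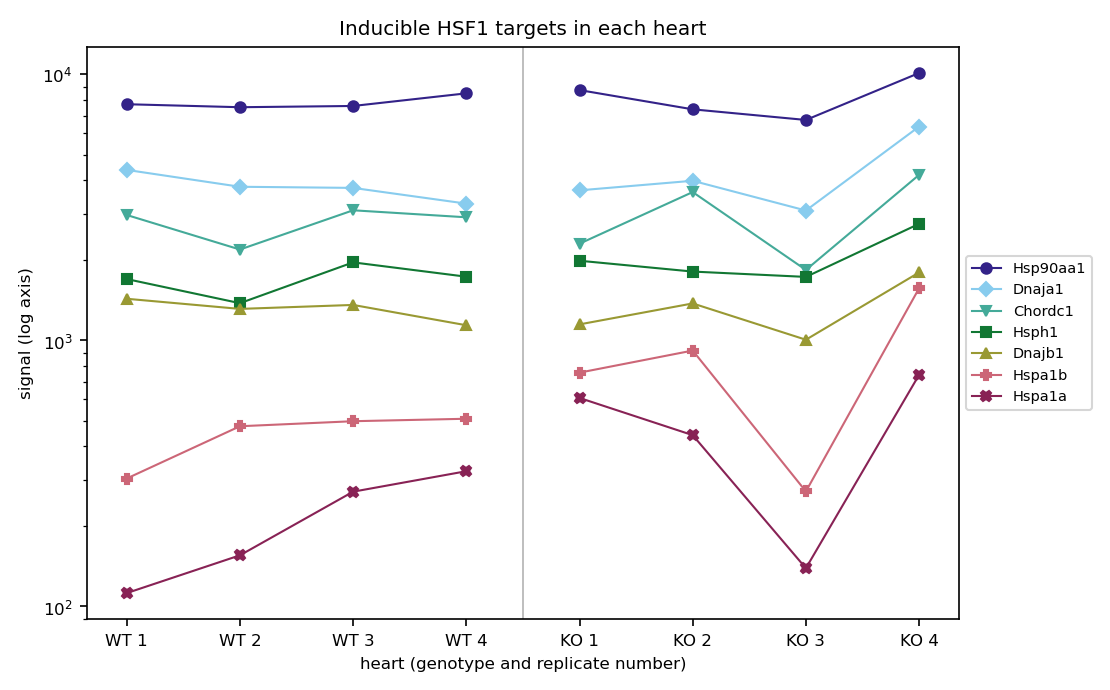
Signal (log axis) of the 7 inducible HSF1 targets that were highest in KO heart 4, in each WT and SRC-2 KO heart, with lines joining the hearts of 1 gene only to guide the eye. Each gene has its lowest KO signal in heart 3, where Hspa1a lies within and Hspa1b below the WT range.

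Bag3, the cochaperone that hands HSP70 clients to autophagy at the Z disc and is linked to cardiomyopathy, read 5090, 4484, 10598 and 5447 in WT and 6482, 6484, 6591 and 8253 in KO. WT heart 3 was the highest of all, and the log2 fold change was 0.20, or 0.47 without that heart and 0.0568 without WT heart 2. Hsph1 (HSP110), a nucleotide exchange factor of HSP70, ranged from 1381 to 1966 in WT and from 1733 to 2744 in KO, with a log2 fold change of 0.28. Chordc1 (morgana), an HSP90 partner, ranged from 2197 to 3085 in WT and from 1841 to 4193 in KO, with a log2 fold change of 0.04. The HSP90 cochaperones Stip1 (HOP), Ahsa1 and Fkbp4 differed by log2 fold changes of 0.14, 0.19 and 0.09, and their genotypes overlapped.

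A strict heat shock element, GAA, any 2 bases, TTC, any 2 bases and GAA on either strand, was found in the promoter windows of 2 of 10 inducible targets, Hsph1 and Chordc1, and in those of 179 genes (0.662%) or 198 of all windows (0.603%). Hsph1 held it from 16 bases after its start. Chordc1 held 3 overlapping matches, of which the first began 4 bases before its start and the last 7 bases after. The sites are shown, each within 30 bases, with the matches in capitals.

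Hsph1, chr5:149636274-149636303, minus strand: agaTTCTGGAAAGTTCtcctcagtaggcta
Chordc1, chr9:18292260-18292289, plus strand: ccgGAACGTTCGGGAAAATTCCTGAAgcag

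The windows of the other 8 did not hold these letters, which says nothing of elements elsewhere or with other spacing.

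Immediate early genes, which are transcribed within minutes of a stimulus, also varied strongly between hearts, in both genotypes. KO heart 1 was here in the place of KO heart 4. None of 18 passed the test, 10 were higher in KO and their median was 0.07. Without KO heart 1, 3 of 18 were higher and the median was -0.235. KO heart 1 was the highest for 11 of 18, against 14.3% of all genes. KO heart 3 was the lowest for 11 of 18, against 15% of all genes. Fos read 373, 1679, 1477 and 1814 in WT and 1029, 487, 306 and 593 in KO, a log2 fold change of -1.05 with an adjusted limma p of 0.59. Jun and Egr1, the other transcription factors named for this list, had log2 fold changes of -0.09 and 0.11, and Ier3, an early response gene with 4 KO hearts above the WT hearts, of 0.26. The mean log2 signal of the immediate early genes relative to WT was 0.88 in KO heart 1 and -0.12 in KO heart 4. That of the inducible targets was 0.25 and 0.69. Among WT hearts the mean of the immediate early genes ran from -0.51 in heart 1 to 0.31 in heart 4.

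Among the constitutive cytosolic chaperones, Hspa2 went against the rest. This testis-enriched HSP70, which is also made at low level elsewhere, read 230, 306, 298 and 289 in WT and 197, 180, 128 and 219 in KO. Every KO heart was below every WT heart. Its log2 fold change was -0.65 ± 0.19 (SE, n = 4 per genotype), or 0.637 times WT, with unadjusted limma p of 0.0114 and 0.0138 and adjusted p of 0.399 and 0.248, in the same order of fits.

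The J proteins Dnajb4 and Dnajb5 had the largest positive differences of the group. Dnajb4 (HLJ1), which supports turnover of misfolded muscle proteins, read 6634, 7239, 7602 and 7533 in WT and 14652, 10100, 8704 and 7898 in KO. All KO hearts lay above all WT hearts, KO heart 1 farthest. The log2 fold change was 0.47 ± 0.20 (SE, n = 4 per genotype), with unadjusted limma p of 0.0491 and 0.00984 and adjusted p of 0.496 and 0.22. It was 0.29 without KO heart 1, and a second probeset, also higher in every KO heart, gave 0.56. Dnajb5, which holds class II histone deacetylases in a redox-dependent complex in cardiac myocytes, read 1712, 1306, 1980 and 1732 in WT and 3107, 2780, 1696 and 1982 in KO. KO hearts 1 and 2 were high, KO heart 3 lay within the WT range and KO heart 4 at its top, with a log2 fold change of 0.48 ± 0.23 (SE, n = 4 per genotype).

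Hspa8 (HSC70), the housekeeping HSP70, read 31526, 26451, 31440 and 28077 in WT and 37630, 30718, 28093 and 38489 in KO. The genotypes overlapped, with a log2 fold change of 0.19, and the brightest probeset not marked for cross-hybridisation gave -0.01 and the other 0.41. Dnaja2, a J protein of HSC70, read 17974, 18648, 18942 and 15010 in WT and 22366, 18819, 21661 and 18935 in KO, a log2 fold change of 0.21, and of its 3 unmarked probesets the brightest gave -0.01 and the others 0.29 and 0.10. The direction of both genes depended on the probeset. Hspa4, an HSP110 exchange factor, ranged from 4283 to 4863 in WT and from 4423 to 6450 in KO, with a log2 fold change of 0.14.

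The log2 fold changes of the small heat shock proteins of muscle ran from 0.02 to 0.40. Hspb1 (HSP27), which binds actin and unfolded proteins, read 21306, 19703, 20105 and 17627 in WT and 32334, 23011, 25220 and 22596 in KO. All KO hearts lay above all WT hearts, KO heart 1 farthest. The log2 fold change was 0.38 ± 0.15 (SE, n = 4 per genotype), with unadjusted limma p of 0.0349 and 0.00894 and adjusted p of 0.471 and 0.21, and it was 0.264 without KO heart 1. A second probeset gave 0.25, with KO hearts 2 and 3 inside the WT range. Hspb3, which forms a complex with Hspb2 in differentiated muscle, read 1773, 1428, 1427 and 1532 in WT and 2365, 1654, 2332 and 1818 in KO. KO heart 2 alone lay within the WT range. Its log2 fold change was 0.40 ± 0.16 (SE, n = 4 per genotype), with unadjusted limma p of 0.0403 and 0.00868.

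Cryab, alpha B-crystallin and the chaperone of desmin, read 46270, 49464, 44508 and 43954 in WT and 59936, 48351, 50339 and 49236 in KO. KO hearts 1 and 3 lay above all WT hearts and KO hearts 2 and 4 just under the highest of them, with a log2 fold change of 0.17, which was 0.00253 under quantile normalization. Hspb6 (HSP20), a substrate of cyclic nucleotide-dependent kinases in the heart, read 36647, 32890, 30550 and 30955 in WT and 40212, 30772, 35269 and 30562 in KO. The genotypes overlapped, and its log2 fold change of 0.06 became -0.07 under quantile normalization and -0.02 without KO heart 1. Hspb2 and Hspb8, the partner of Bag3, had log2 fold changes of 0.18 and 0.02, with overlapping genotypes. KO heart 1 was the highest heart for 6 of the 7 genes, but it was also the highest for 24.2% of the tenth of genes with the highest signals and for 14.3% of all genes. The ventricular and general myocyte markers lay to the same side, 11 of 11 higher, at a median of 0.18 (log2 fold change) and with sums from 554634 to 739520 in WT and from 656693 to 842890 in KO, and their part in the values of the small heat shock proteins was not tested.

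Hspb7, a cardiovascular small heat shock protein, separated the hearts across genotypes. Its signals were 29819, 7193, 7363 and 27552 in WT hearts 1 to 4 and 35277, 28196, 9051 and 8031 in KO hearts 1 to 4. A pair of hearts in each genotype was high and a pair was low, and the lowest of the 4 high hearts was 3.04 times the highest of the 4 low ones. The log2 fold change between genotypes was 0.18 with a 95% confidence interval from -1.5 to 1.9. A gap of 3 times or more between the 4 highest hearts and the rest was found for 198 genes (1.09%), of which 3 had every signal above 50. The other probesets read 12901, 9227, 11099 and 13601 in WT and 19843, 15068, 10834 and 8948 in KO, and 5338, 8067, 7915 and 7378 in WT and 9093, 7875, 6235 and 5629 in KO. The first of these had the same highest and lowest KO hearts with a smaller range, and the second did not separate the WT hearts in this way.

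Genes near Hspb7 on chromosome 4 were then read, chosen after its values were seen. Of its 40 nearest measured protein-coding genes, 20 on each side, 3 had the same 4 highest hearts, against 170 of all genes (0.934%). Efhd2, a calcium-binding protein of the actin cytoskeleton, read 2573, 677, 501 and 1954 in WT and 2701, 2135, 520 and 665 in KO. A second Efhd2 probeset read 397, 409, 535 and 490 in WT and 650, 261, 128 and 328 in KO and did not follow Hspb7. Arhgef19 read 304, 93.8, 96.8 and 296 in WT and 328, 231, 107 and 164 in KO. The third was Zbtb17 (Miz-1), a zinc finger transcription factor, at 528, 386, 292 and 410 in WT and 507, 429, 290 and 370 in KO. By the brightest probeset, WT hearts 1 and 4 and KO hearts 1 and 2 were the 4 highest in all 3 genes. In Zbtb17 no gap like that of Hspb7 set them off, as WT heart 4 at 410 was just above WT heart 2 at 386. What set these hearts apart was not tested.

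**Figure D5:**
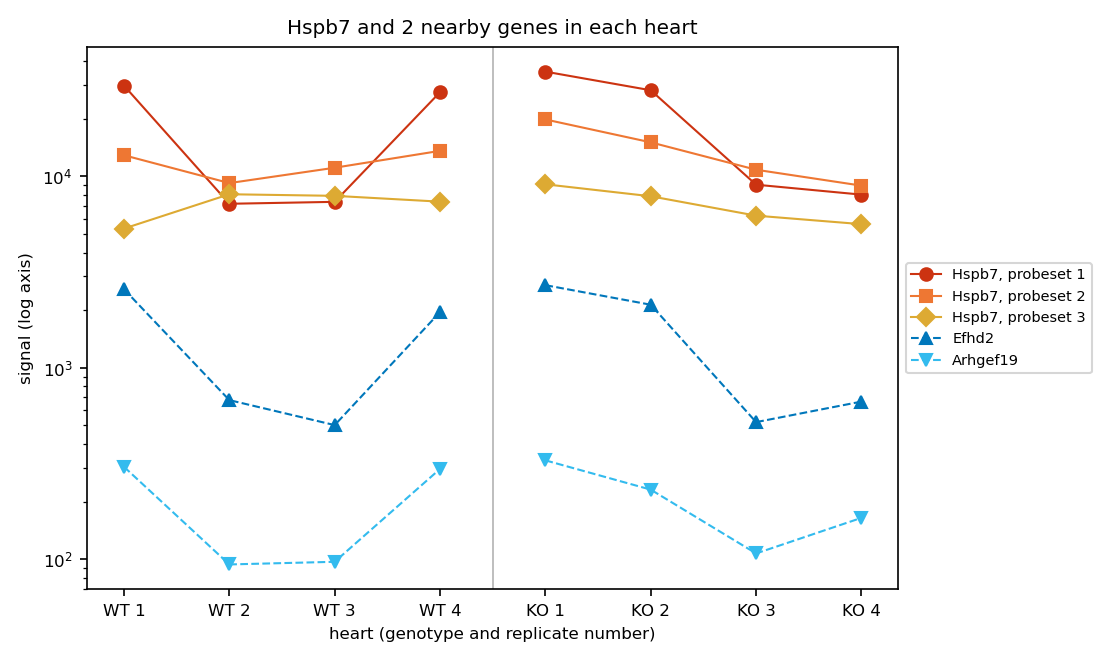
Signal (log axis) of the 3 Hspb7 probesets and of the nearby genes Efhd2 and Arhgef19 in each WT and SRC-2 KO heart, lines joining the hearts of 1 probeset or gene to guide the eye. Probeset 1 of Hspb7, Efhd2 and Arhgef19 are high in WT hearts 1 and 4 and KO hearts 1 and 2 and low in the other 4, while probeset 3 of Hspb7 does not follow them in WT hearts.

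The remaining cytosolic machinery had no gene that passed the test. Of 16 further cochaperones of HSP90 and HSP70 12 were higher in KO, with a median log2 fold change of 0.10. Ppp5c, a phosphatase bound to HSP90, read 1319, 1114, 1735 and 1350 in WT and 1867, 2056, 1921 and 2019 in KO. All KO hearts were above all WT hearts, with a log2 fold change of 0.53 ± 0.15 (SE, n = 4 per genotype) and adjusted limma p of 0.39 (common-variance fit) and 0.0955 (trended fit). Fkbp5, an HSP90 cochaperone of steroid receptors and a glucocorticoid target, read 603, 547, 690 and 808 in WT and 1151, 1481, 1476 and 761 in KO. KO hearts 1 to 3 were above all WT hearts and KO heart 4 was within them, with a log2 fold change of 0.84 ± 0.25 (SE, n = 4 per genotype) and adjusted limma p of 0.399 (common-variance fit) and 0.101 (trended fit).

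Of 15 other HSP70 and J proteins 6 were higher, with a median of -0.09. Hspa12a, a distant HSP70, had a log2 fold change of -0.39 and an unadjusted limma p of 0.0262, and Dnajb2, a J protein that sorts clients to the proteasome, of 0.21. The 8 subunits of the TRiC chaperonin, which folds actin and tubulin, differed little, 6 higher with a median of 0.07. Cct3 had a log2 fold change of 0.23, with all KO hearts above the WT hearts, and Tcp1 of 0.10. Of 7 aggregate and stress proteins 3 were higher. Sqstm1 (p62), the autophagy receptor, read 3769, 2845, 4016 and 3826 in WT and 4785, 4734, 4535 and 4257 in KO, a log2 fold change of 0.35. Psmd4, a ubiquitin receptor of the proteasome, had one of 0.24. In both genes every KO heart lay above every WT heart, and neither passed the test.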

How the data were processed

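The labels gave 4 WT and 4 SRC-2 KO hearts. The authors deposited 1 table of intensities on a linear scale for 45101 probesets, with a common mean across arrays once 2% of probesets are trimmed from each end. The submitters' processing notes and the methods name RMA, which this linear table does not show, and the algorithm behind it was not given in the sources used here. log2 of these deposited intensities was taken with no floor or further normalization. Of 35890 annotated probesets, 34958 with 1 gene symbol were used, and the brightest by its mean represented each of 18194 genes. limma 3.58.1 in R 4.3.3 (lmFit, eBayes, two-sided, Benjamini-Hochberg over all genes, threshold 0.05) gave the tests, and was tested on simulated data. Members and lists were chosen with earlier results of these data known. Genes named with values were those with an unadjusted p under 0.05 in either fit, those whose genotypes did not overlap, the 2 with the highest signal in each group and, in each related list, the 2 with the smallest p and Fos, Jun and Egr1. Hsph1, Chordc1, Dnaja1, Dnajb1, Pdia4, Hspb7 and its neighbours were detailed after their values were seen. Replicate numbers are not stated to pair hearts across genotypes and were not used as pairs. The number of arrays limits the precision. Alternatives were the trended fit, a replicate block, array weights, a random variance model, unmoderated variances, the mean of all probesets, probesets without cross-hybridisation marks, genes above the median signal, median centring, quantile normalization, a floor of 50 and leaving out each heart. Promoters came from the RefSeq table of GRCm38.p6. Python 3.11.15 with matplotlib 3.10.9 drew the figures.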

Additional observations from a re-analysis of the deposited data

Results flagged for a closer look

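A heart far from the other 3 of its genotype, by a ratio of gap to range above Dixon's 95% critical value, was looked for in 64 groups of values, where chance gives about 1 in 20. It was found in 2. Hspa1b was lowest in WT heart 1, at a signal of 303, with a ratio of 0.875. Bag3 was highest among the KO hearts in heart 4, at 8253, with a ratio of 0.931.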

How the results depend on the processing

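No member passed the test under any alternative. Of the values tracked under the alternatives, 12 of single genes changed sign, none of them a called gene. With the mean of all probesets, Cryab gave -0.12, Pdia6 0.374 and Hsf2 0.138. Without cross-hybridising probesets, Dnaja2 gave -0.0118 and Hspa8 -0.0111. Under quantile normalization, Hsf2 gave 0.0241, Hsp90aa1 -0.00794 and Hspb6 -0.0658. With 1 heart left out, Hsf2 ranged from -0.163 to 0.0187, crossing 0 without WT heart 2 (0.00432) or KO heart 4 (0.0187), Hsp90aa1 from -0.047 (without KO heart 4) to 0.148, and Hspb6 from -0.0242 (without KO heart 1) to 0.112. The number of members whose genotypes did not overlap was 3 with the mean of all probesets and 5 to 9 with 1 heart left out. Ncoa2 stayed at -2.95 with a replicate block but at an adjusted p of 0.254, and was -1.3 with an adjusted limma p of 0.478 with the mean of all probesets.

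The median of the ER chaperones lay between -0.337 and -0.216, and 5 to 7 of 7 were lower. The median of the small heat shock proteins was 0.0428 under quantile normalization. The inducible targets had 7 of 11 higher without KO heart 4. With the replicate block 0 members and 0 genes were called. Same-numbered hearts deviated with correlations from -0.0802 to 0.108, and other pairs of a WT and a KO heart from -0.127 to 0.143. The labels do not say that the numbers pair hearts, and the numbers were not used as pairs. Over all genes 4 were called in the common-variance fit, 68 in the trended fit, 1 with each gene's own variance or the mean of all probesets, 22 among genes above the median signal, 2 with a floor of 50 and 1 to 3 without 1 heart. The causes were not tested. Signals under 50 did not limit the brightest probeset of any member, but the mean of all probesets also took in dim ones. The dimmest Pdia6 probeset ranged from 3.24 to 47.2, with a log2 fold change of 1.09. The dimmest Cryab probeset ranged from 1.54 to 59.4, with one of -0.745. The dimmest Pdia4 probeset ranged from 3.21 to 41.1, with one of 0.561.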
